A study of Homo sapiens with 12 samples.

Results

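The genes of oxidative phosphorylation were followed in 4 lines made from HMLE, human breast epithelium that divides without limit through telomerase and SV40 antigens. The CT83 line carried the cancer/testis gene CT83, the HORMAD1 line carried HORMAD1, a meiotic chromosome axis gene, the double line (HORMAD1_CT83 in the labels) carried both, and the control line carried a control construct. All 4 lines had been selected with puromycin, and each gave 3 polyadenylated RNA libraries. The members were the protein-coding genes for subunits of complexes I to V, taken by symbol: the NDUFA, NDUFB, NDUFC, NDUFS and NDUFV genes, SDHA to SDHD, the UQCR genes, CYC1, the COX4 to COX8 genes, the ATP5 genes other than ATP5IF1, and the 13 mRNAs of the mitochondrial genome. Assembly factors and pseudogenes were left out. The rule found 102 of 61533 gene entries, 89 of them nuclear and 13 mitochondrial. It used no expression value, though the members were chosen with earlier results of these data known.

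Oxidative phosphorylation is the last stage of respiration in mitochondria. Complex I (NADH dehydrogenase) and complex II (succinate dehydrogenase) pass electrons to ubiquinone, complex III hands them on to cytochrome c, and complex IV (cytochrome c oxidase) gives them to oxygen. Complexes I, III and IV pump protons across the inner membrane, and complex V, the ATP synthase, lets the protons flow back to make ATP. Most subunits are nuclear genes whose proteins are imported, while a core set is transcribed inside the organelle from both strands of the mitochondrial DNA, so each complex other than complex II needs products of both genomes. Promoters of the nuclear genes are known for binding sites of NRF1, the ETS factor GABP (NRF2) and YY1.

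Short motifs of those factors were searched on both strands in the promoters of the nuclear members, from 250 bases before to 50 after the RefSeq start, for the 69 of 89 members with an entry. The ETS core CCGGAAG was found in 28.99% of the member promoters (20 of 69), against 14.23% of 15843 protein-coding promoters. The YY1 core AAGATGGC stood in 15.9% (11 of 69), against 3.91%. The NRF1 core GCATGCG stood in 18.8% (13 of 69), against 5.14%. A match is a description of the letters and not a measured binding site. The 120 bases before the start of 3 members with an ETS match are shown, 1 each from complexes V, IV and I. They were picked with results known, because ATP5PD and COX5B recur in the comparisons below and NDUFB7 does so once. Of other members named below, NDUFS3, COX6B1, UQCRH, UQCRQ, NDUFA1, NDUFA13, ATP5PF, COX8A, COX6A1, SDHD and UQCR11 also had ETS matches in these 120 bases. ATP5PB, NDUFA5, NDUFA6, NDUFA12, NDUFV1 and COX7A2L, among others, had 0 matches of any of the motifs there. Whether a match goes with a difference between lines was not tested. The sequences are written 5′ to 3′ on the gene's strand, from RefSeq on build GRCh38.p14, with the match in capitals.
ATP5PD, chr17:75046970-75047089, minus strand: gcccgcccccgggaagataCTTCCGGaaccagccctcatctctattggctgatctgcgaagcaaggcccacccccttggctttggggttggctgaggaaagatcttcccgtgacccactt
COX5B, chr2:97645942-97646061, plus strand: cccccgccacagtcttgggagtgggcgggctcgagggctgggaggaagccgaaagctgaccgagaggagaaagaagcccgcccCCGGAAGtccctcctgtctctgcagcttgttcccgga
NDUFB7, chr19:14572067-14572186, minus strand: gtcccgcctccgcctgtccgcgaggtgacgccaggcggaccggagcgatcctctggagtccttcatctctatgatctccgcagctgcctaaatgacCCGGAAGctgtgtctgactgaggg

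The 12 libraries held 9898845 to 14159740 expected counts each, after rounding to whole numbers. CT83 and HORMAD1 followed the labels, with no count of either gene in any library of a line that should lack it. The level of CT83 was unequal: it had 86.6 to 118 CPM in the double line (102 ± 15.5) and 399.7 to 723 CPM in the CT83 line (523 ± 175; SD, n = 3 each), without overlap, while HORMAD1 had 314 ± 31.7 CPM in the double line and 289.6 ± 75.4 in the HORMAD1 line. The libraries were epithelial by their markers, whose 9 genes (KRT5, KRT14, CDH1 and others) summed to 7567 to 9485 CPM (counts scaled to a common library size), while 5 leukocyte markers summed to 0.514 to 1.93 CPM and 4 endothelial markers to 0.191 to 1.55 CPM. The 7 fibroblast markers summed to 29.1 to 45.1 CPM in CT83, 26.9 to 47.5 in HORMAD1, 38.8 to 89.6 in the double line and 41.3 to 74.3 in control. Nothing in the labels shows that the 3 replicates came from separate cultures, and the p-values cover no more than the spread among these libraries, which may be technical. Each construct is represented by 1 line, so a transgene's effect and a difference between lines cannot be told apart. In such bulk RNA, fewer cells with a transcript and less of it per cell cannot be told apart either.

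Of the 102 members, 77 passed the filter on low counts, the 13 mitochondrial mRNAs among them, and 25 nuclear members did not. Complex I kept 29 of its 37 nuclear members, complex II 2 of 4, complex III 9 of 10, complex IV 10 of 19 and complex V 14 of 19. The highest count of any of the 25 in any library was 11, and 12 of them were listed at 0 in all 12 libraries. Some of the 25 are tissue-restricted forms, such as the muscle forms COX6A2 and COX7A1, the testis forms COX6B2, COX7B2 and COX8C, the lung form COX4I2 and the hypoxia-induced NDUFA4L2.

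Others are subunits that every respiring cell uses. The complex I subunits NDUFA7, NDUFA9, NDUFA11, NDUFB5, NDUFB8, NDUFC2 and NDUFV2, the flavoprotein SDHA and the membrane anchor SDHD of complex II, UQCR11 of complex III, COX6A1 and COX8A of complex IV, and ATP5MF, ATP5MG and ATP5PO of complex V had at most 7 counts in a library. The remaining 3, the read-through entries NDUFC2-KCTD14 and ATP5MF-PTCD1 and the gene ATP5MGL, had at most 2. A listed 0 can therefore not be read as a missing transcript. In the GENCODE 29 annotation, 16 of the 25 share exon bases of their principal transcript with another gene on the same strand, 7 of them over more than 50% of the bases. Among the 64 nuclear members that passed, 6 share any and 0 share more than 50%. NDUFV2 shares 82.9%, NDUFA7 75.9%, NDUFB8 71.7% and ATP5PO 70.3%, while SDHA and NDUFB5 share none. NDUFA13, a complex I subunit with 6 to 16 counts per library, passed only just. How reads were shared between overlapping genes is not given in the sources used here, and the part of shared exons in the low values was not tested. No comparison of lines was made for the 25.

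Levels are comparable between genes only per transcript length, and are given here as CPM per kilobase of the longest principal transcript, as the mean of the 12 libraries. The 3 catalytic-core subunits of complex IV that the mitochondrial genome encodes stood highest, MT-CO2 at 1796, MT-CO1 at 1408 and MT-CO3 at 1160. No nuclear member reached the level of MT-CO3 under any of the 3 definitions of length tried. The highest nuclear members were ATP5F1B, the catalytic beta subunit of the ATP synthase, at 476, NDUFS8, an iron-sulfur subunit of complex I, at 461, NDUFB9 at 453, and COX4I1, a nuclear subunit that joins cytochrome oxidase early in its assembly, at 451. The 64 nuclear members had a median of 86.4, and the 13 mitochondrial ones a median of 224.

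By complex, the nuclear medians were 50.5 CPM per kilobase for complex I, 66.6 for complex II, 88.9 for complex III, 99.2 for complex IV and 105 for complex V. Complex II rested on SDHB, its iron-sulfur subunit, at 126, and SDHC, a membrane anchor, at 6.99, whose principal transcript is 13566 bases long. Within complex I, NDUFS5 followed at 294, and within complex III the leading members were UQCRH at 276, CYC1 (cytochrome c1) at 255 and UQCRQ at 205, with UQCRB at 24.7. In complex IV, COX5B stood at 188 and COX6B1 at 167, with COX7B at 39.8 and COX7A2L at 36.5 at the low end. In complex V, ATP5F1C, the gamma subunit that turns inside the catalytic head, stood at 224 and ATP5PD at 192, with ATP5MC2 at 43.1 and ATP5F1E at 39.4 lowest. The lowest members were NDUFA13 at 0.912, UQCRHL, an intronless relative of the complex III hinge gene UQCRH, at 2.55, and NDUFV3 at 5.96. The nuclear median depended on the length used, with 39.4 per kilobase of all exons and 124 per kilobase of the shortest principal transcript, an alternative chosen after seeing the data. The order between neighbouring genes therefore carries little weight where principal transcripts differ in length.

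Some subunits have alternative genes, for which the counts listed per form are given; since universal subunits were also listed at or near 0, a low count does not show which form the cells lack. COX4I1 had 386 CPM in CT83, 380 in HORMAD1, 418 in the double line and 392 in control as means of 3 libraries, and COX4I2 had at most 2 counts in a library. COX6B1 averaged 107 to 116 CPM in the 4 lines, against at most 7 counts of COX6B2. COX7A2 averaged 127 to 146 CPM, with at most 3 counts of COX7A1, and COX7B 90.9 to 106 CPM, with at most 3 counts of COX7B2. NDUFA4, long counted with complex I and now with complex IV, averaged 103 to 120 CPM, against at most 11 counts of NDUFA4L2. UQCRH averaged 160 to 174 CPM and its relative UQCRHL 4.62 to 6.05. The 3 genes for the identical c subunit of the ATP synthase's rotor ring were all present, with line means of 246 to 259 CPM for ATP5MC3, 95.4 to 115 for ATP5MC1 and 79.01 to 91.6 for ATP5MC2. For COX6A and COX8, both the general and the restricted forms were at or near 0.

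Nuclear subunit genes have many processed pseudogenes and mitochondrial genes have nuclear copies, so reads may also be split among copies. A further 9 of the 64 (NDUFA1, NDUFB2, NDUFB9, NDUFB11, NDUFS7, UQCRQ, ATP5F1E, ATP5ME and ATP5PF) share over 20% of exon bases with a gene on the other strand, and are uncertain because the use of strand is not given.

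**Figure D1:**
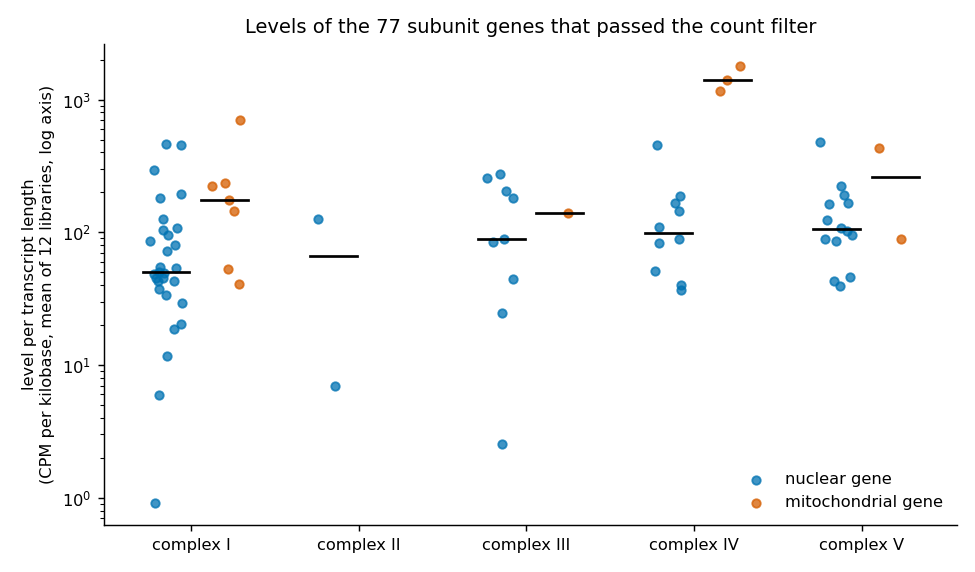
Level per transcript length (CPM per kilobase, log axis, mean of 12 libraries) of each of the 77 members that passed the filter, by complex. Blue points are nuclear genes, orange points mitochondrial genes and black lines medians. MT-CO1, MT-CO2 and MT-CO3 lie above all nuclear genes.

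Within the mitochondrial genome, levels per length spanned 43.8-fold. After the MT-CO genes came MT-ND3 at 697 CPM per kilobase and MT-ATP6, the proton channel subunit of the ATP synthase, at 430. MT-ND4 and MT-ND2, core membrane subunits of complex I, stood at 234 and 224, MT-ND4L at 174, and MT-ND1 at 143 beside MT-CYB, the cytochrome b of complex III, at 139. MT-ATP8 had 89.7, MT-ND6, the one mRNA made from the light strand, 53.1 and MT-ND5 41.0. MT-ATP8, of 207 bases, shares 22.2% of them with MT-ATP6, and MT-ND4L shares 2.36% with MT-ND4. How reads were shared within these pairs is not given, so their levels cannot be read as those of separate transcripts. MT-ND6 lies right after the end of MT-ND5, on the other strand. The use of strand is not given, so the level of MT-ND6 is uncertain too. All 13 mRNAs together made up 0.713%, 0.626% and 0.464% of counts in CT83 (replicates 1 to 3), 0.473%, 0.504% and 0.743% in HORMAD1, 0.627%, 0.688% and 0.387% in the double line, and 0.704%, 0.547% and 0.550% in control. The means were 0.601% ± 0.127 in CT83, 0.573% ± 0.148 in HORMAD1, 0.567% ± 0.159 in the double line and 0.600% ± 0.0900 in control (SD, n = 3 each). The lines overlapped, and replicates of a line differed more than the means of lines did.

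The spread between replicates was the main feature of the mitochondrial mRNAs. Their SD of log2 CPM within a line, pooled over the 4 lines, had a median of 0.37 and ranged from 0.27 to 0.48. It was 0.13 for the nuclear members that passed, 0.19 for all 15616 genes tested and 0.13 for the 6185 genes with a mean log2 CPM of at least 5. Among all genes tested, 9.88% to 32.04% had a larger spread than a given mitochondrial mRNA. MT-CO2 had 1497, 1248 and 872 CPM in CT83, 778, 1171 and 1739.6 in HORMAD1, 1389, 1493 and 775 in the double line, and 1550.4, 1058 and 1167 in control. Each line thus held a library well above another of the same line.

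The libraries moved together across most of the mitochondrial genome. Within the double line, replicate 3 was lowest for all 13 mRNAs and replicate 2 highest for 11 of them. Within HORMAD1, replicate 3 was highest for 11, and within CT83, replicate 3 was lowest for 11. Among all 12 libraries, double replicate 3 was lowest for 10 of the 13. MT-ND5 and MT-ND6, neighbours at the end of the complex I genes, were the exceptions within HORMAD1, and departed from the MT-CO genes in other lines too. As medians of log2 CPM relative to the 12-library mean, the MT-CO genes had -0.35 and MT-ND5 with MT-ND6 0.51 in HORMAD1 replicate 1. These were -0.45 and 0.18 in CT83 replicate 3, -0.15 and 0.32 in control replicate 2, and 0.22 and -0.34 in double replicate 1. In every other library both medians had the same sign. MT-ND5 had 84.1, 93.4 and 89.4 CPM in CT83, 95.8, 47.2 and 74.2 in HORMAD1, 52.2, 83.3 and 48.9 in the double line, and 75.7, 87.6 and 59.3 in control, so its highest library was HORMAD1 replicate 1, in which MT-CO2 was lowest for that line. MT-ND6 showed the same library on top, with 41.1, 17.04 and 26.7 CPM in HORMAD1, against 31.7, 34.4 and 20.2 in control. Because the use of strand is not given, MT-ND6 may not be a measure separate from MT-ND5. What set these libraries apart was not tested.

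**Figure D2:**
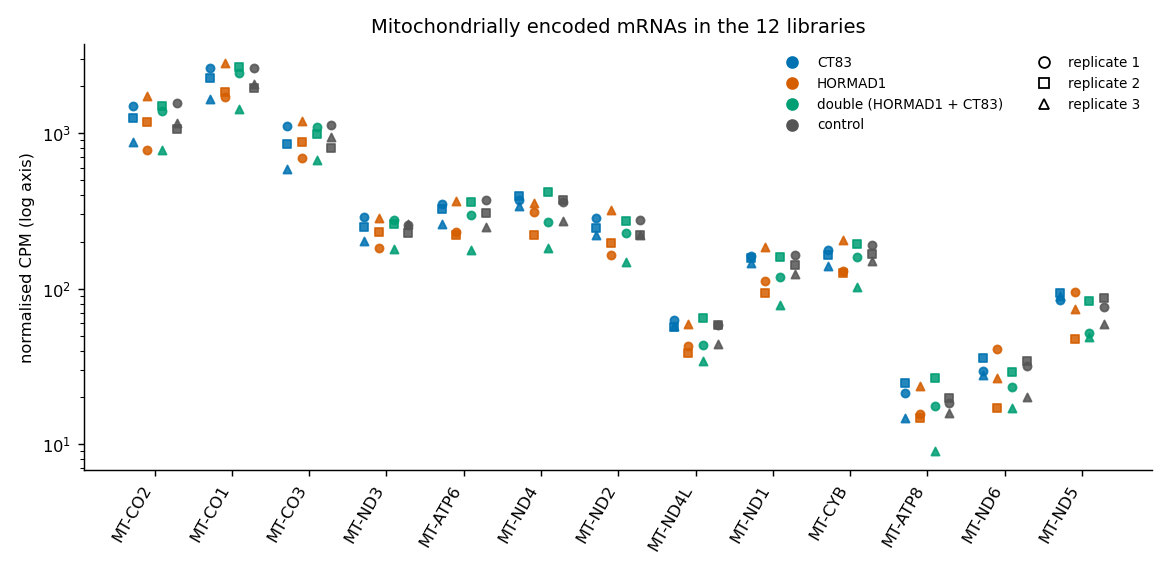
Normalised CPM (log axis) of the 13 mitochondrial mRNAs in each library, ordered by level per transcript length from left to right. Colours are lines, in the order CT83, HORMAD1, double and control within each gene, and markers are replicates. Replicate 3 of the double line (green triangle) is the lowest of its line for all 13.

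The nuclear members varied less, and in an order of libraries that was only partly the same. In both sets, the median fell from replicate 1 to replicate 3 in CT83. HORMAD1 replicate 3 and control replicate 1 were the highest of their lines in both, and double replicate 3 the lowest of its line. As the median over the 64 members of log2 CPM relative to the mean of the 12 libraries, CT83 had 0.05, 0.05 and -0.21, HORMAD1 had -0.19, -0.01 and 0.05, the double line had 0.17, 0.09 and 0.01, and control had 0.05, -0.09 and 0.01 (replicates 1 to 3). The same median over the 13 mitochondrial mRNAs was 0.27, 0.17 and -0.14 in CT83, -0.26, -0.31 and 0.39 in HORMAD1, -0.01, 0.31 and -0.62 in the double line, and 0.28, 0.09 and -0.10 in control. Double replicate 1 held the highest value of all 12 libraries for 36 of the 64 nuclear members, yet for 0 of the 13 mitochondrial ones. The lowest value was in CT83 replicate 3 for 26 nuclear members, in HORMAD1 replicate 1 for 18 and in control replicate 2 for 10.

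Those 4 libraries also stood at the ends of a trend with transcript length over all genes, measured as log2 CPM per doubling of length. The slope was 0.0597 in HORMAD1 replicate 1, 0.0548 in CT83 replicate 3 and 0.0294 in control replicate 2, the most positive of the 12, and -0.0481 in double replicate 1, the most negative. The nuclear members are short, with a median principal transcript of 1090 bases, against 2689 for all genes tested with a length. Medians over the nuclear members in comparisons of the double line are therefore also given with a correction for this trend.

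**Figure D3:**
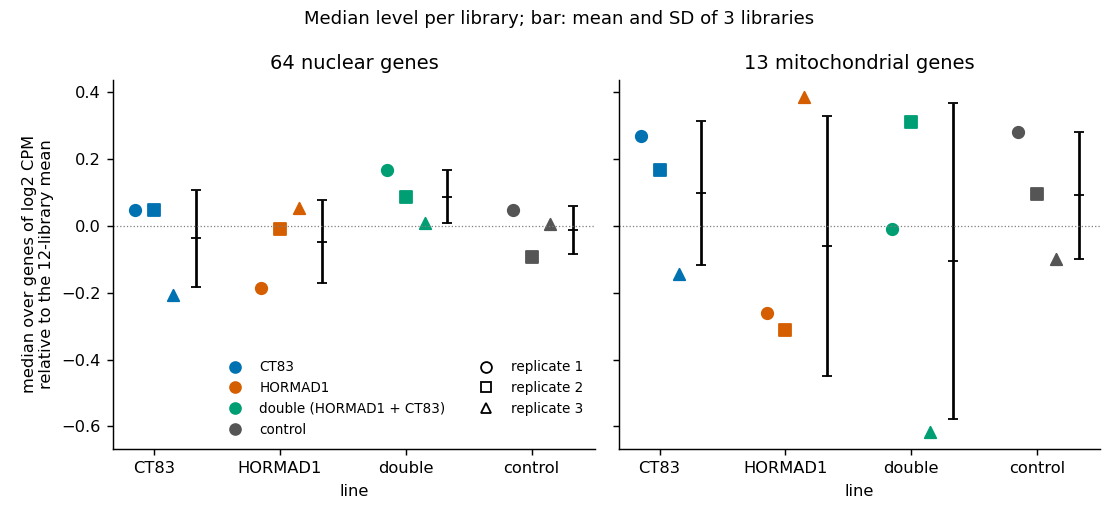
Median over genes of log2 CPM relative to the 12-library mean, for the 64 nuclear members (left) and the 13 mitochondrial mRNAs (right), by line and replicate. Bars give the mean and SD of 3 libraries. The double line has the highest nuclear mean, 0.09, with its replicates from 0.01 to 0.17, and the mitochondrial values spread from -0.62 to 0.39.

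The CT83 line was compared with control to see what CT83 alone did. No member passed edgeR's quasi-likelihood test at a Benjamini-Hochberg adjusted p under 0.05, where 0.0064% of all 15616 genes tested were called. DESeq2 and limma-voom called 0 members too, and 0 members had an unadjusted edgeR p under 0.05, against 2.73% of all genes. The median log2 fold change was -0.02 for the nuclear members, 27 of 64 of them positive, and 0.07 for the mitochondrial ones, 8 of 13 positive, against 0.01 for all genes. Both medians turned on single libraries: the nuclear one was 0.07 with 48 of 64 positive without CT83 replicate 3 and -0.06 with 18 of 64 without CT83 replicate 1, where the mitochondrial one was -0.03.

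The values of single members were small. NDUFA6, an accessory subunit of complex I, had 36.3, 36.7 and 45.5 CPM in CT83, against 47.5, 41.6 and 48.6 in control, a log2 fold change of -0.22 (SE 0.11, edgeR adjusted p = 0.984). NDUFA10, another accessory subunit, had 99.8, 92.5 and 84.6 CPM in CT83, against 110.0, 99.9 and 105 in control, with a log2 fold change of -0.18 (SE 0.10). NDUFB6 followed with -0.18 (SE 0.14). The libraries overlapped for NDUFA6 and NDUFB6 and did not for NDUFA10. Among members with a mean log2 CPM of at least 5, the largest positive values were mitochondrial: MT-ND5 had 0.26 (SE 0.27), MT-ND4 0.14 (SE 0.28) and MT-ND4L 0.14 (SE 0.22), all with overlapping libraries. NDUFA13 itself had 0.74, from 9 to 16 counts in CT83, against 6 to 10 in control. In all, 2 members lay higher in CT83 without overlap (NDUFV1 and NDUFA13) and 1 lower (NDUFA10), against 4.73% and 5.73% of all genes.

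The HORMAD1 line was compared with control in the same way, and again 0 members were called by edgeR, by DESeq2 or by limma-voom, against 0.0064% of all genes by edgeR. A single member, NDUFA6, had an unadjusted p under 0.05, against 1.81% of all genes. It had 37.2, 37.4 and 39.96 CPM in HORMAD1, against 47.5, 41.6 and 48.6 in control, with a log2 fold change of -0.27 (SE 0.11, edgeR adjusted p = 1.00). All 3 HORMAD1 libraries lay below all 3 control libraries.

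The nuclear median log2 fold change was -0.0043 (30 of 64 positive) and the mitochondrial one -0.08, with 0 of 13 positive and 13 of 13 overlapping. The mitochondrial median was -0.33 without HORMAD1 replicate 3 and 0.0040 without HORMAD1 replicate 2, and the nuclear one was 0.05 with 48 of 64 positive without HORMAD1 replicate 1 and -0.07 with 12 of 64 without HORMAD1 replicate 3. The mitochondrial median SE of 0.28 was larger than each of these 13 values, the lowest of which was -0.20 (SE 0.22) for MT-ND4L, followed by MT-ATP6 at -0.18 (SE 0.29). Above a mean log2 CPM of 5, the largest positive values were NDUFA1, a small membrane subunit of complex I, at 0.19 (SE 0.14), COX7B of complex IV at 0.07 (SE 0.12) and SDHB of complex II at 0.06 (SE 0.11). Without overlap, 2 members were higher (NDUFV1 and NDUFA13) and 3 lower (NDUFA6, NDUFB11 and ATP5F1D, the delta subunit of the ATP synthase), against 4.21% and 3.36% of all genes.

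In the double line the nuclear members leaned upward against control and the mitochondrial ones downward, but none passed the test. No member was called by edgeR, DESeq2 or limma-voom, while edgeR called 0.0256% of all genes. At an unadjusted p under 0.05, 4 members were higher and 0 lower, against 2.73% and 2.84% of all genes. The nuclear median log2 fold change was 0.10 with 55 of 64 positive, and the median over all genes tested was -0.0015. With the correction for transcript length the nuclear median was 0.07 with 51 of 64 positive, without double replicate 1 it was 0.06 with 50 of 64, and without control replicate 2 it was 0.07 with 50 of 64. The mitochondrial median was -0.15 with 0 of 13 positive, but 0.05 without double replicate 3.

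By complex, the nuclear medians were 0.08 for complex I (22 of 29 positive), 0.14 for complex II (2 of 2), 0.11 for complex III (8 of 9), 0.15 for complex IV (10 of 10) and 0.09 for complex V (13 of 14). Members of 1 complex share libraries, so these counts are descriptions. The libraries of 15 nuclear members lay above those of control without overlap, against 7.62% of all genes, and those of 0 members lay below, against 7.83%. They were NDUFS3, NDUFS5, NDUFV1 and NDUFA5 of complex I, UQCRB, UQCRC1 and UQCRC2 of complex III, COX5B, COX6B1, COX6C and COX7A2L of complex IV, and ATP5MC1, ATP5MC2, ATP5PB and ATP5PD of complex V.

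**Figure D4:**
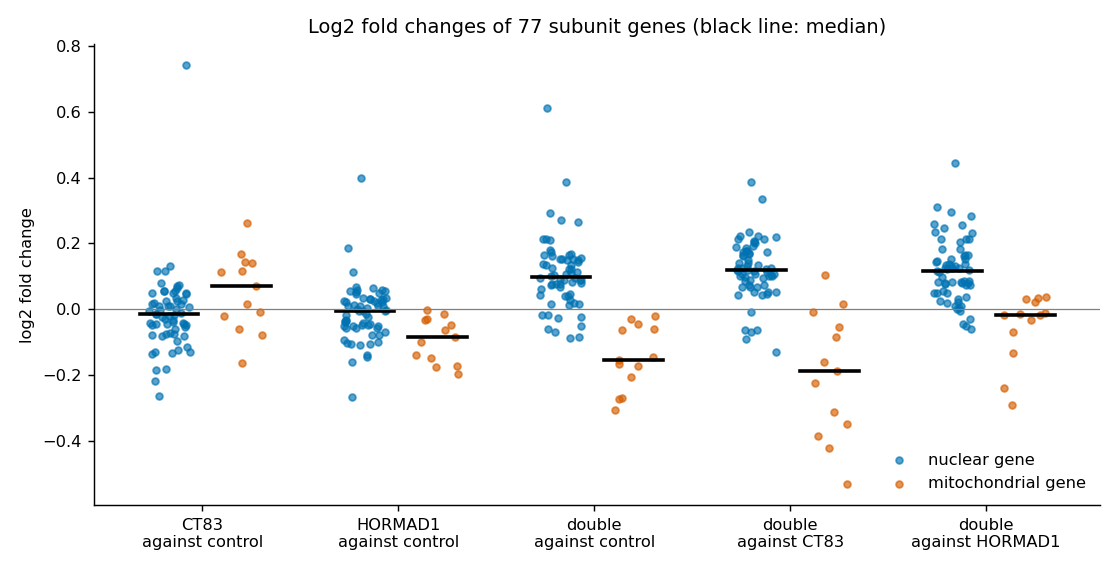
Log2 fold change of each of the 77 members in 5 comparisons, with nuclear genes in blue, mitochondrial genes in orange and medians as black lines. The nuclear medians are -0.02 and -0.0043 for CT83 and HORMAD1 against control, and 0.10, 0.12 and 0.12 for the double line against control, CT83 and HORMAD1. The highest point in each comparison with control is NDUFA13, which rests on 6 to 16 counts.

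ATP5PB, the b subunit of the peripheral stalk that holds the ATP synthase's catalytic head still, had the largest log2 fold change among members with a mean log2 CPM of at least 5. It had 689, 601 and 585 CPM in the double line, against 509, 402 and 525 in control, 625 ± 56.4 and 478 ± 66.5 (SD, n = 3 each). All 3 double libraries exceeded all 9 others. The log2 fold change was 0.39 (SE 0.12, edgeR adjusted p = 0.713).

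ATP5PD, the d subunit of the same stalk and 1 of the promoters shown above, had 151, 121 and 122 CPM in the double line, against 118, 95.8 and 109 in control, with a log2 fold change of 0.29 (SE 0.12, edgeR adjusted p = 0.858). NDUFA5, an accessory subunit in the arm of complex I that takes electrons from NADH, had 67.4, 59.0 and 62.6 CPM, against 57.9, 47.2 and 51.3 in control, with 0.27 (SE 0.09, edgeR adjusted p = 0.797). The libraries did not overlap for either gene, and for each the lowest double library lay just above the highest control one. NDUFV1, the subunit of complex I that binds NADH, was tighter, with 502, 489 and 481 CPM in the double line, against 439, 435 and 437 in control, a log2 fold change of 0.17 (SE 0.07, edgeR adjusted p = 0.865).

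COX5B, a nuclear subunit of complex IV that binds zinc, had 156, 147 and 141 CPM in the double line, against 127, 122 and 134 in control, with 0.21 (SE 0.10). UQCRC1 and UQCRC2, the core proteins of complex III, had log2 fold changes of 0.13 each, and SDHB and SDHC of complex II had 0.14 each. The mitochondrial mRNAs with the lowest values of the naming rule were MT-ND1 at -0.27 (SE 0.29), MT-ND5 at -0.27 (SE 0.27) and MT-ND4 at -0.21 (SE 0.28). All 13 overlapped with control, and MT-CO1, MT-CO2 and MT-CO3 had values of -0.03, -0.05 and -0.06.

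**Figure D5:**
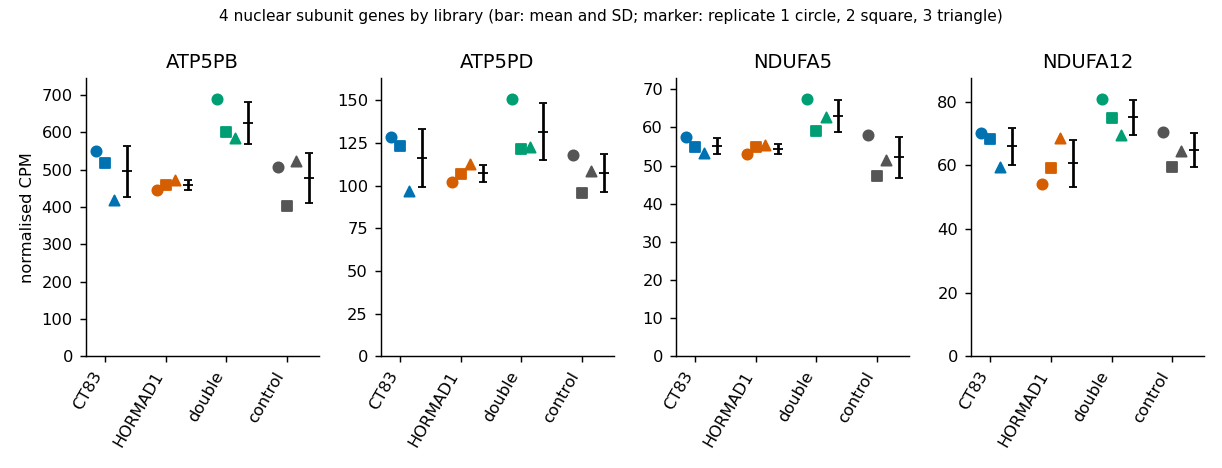
Normalised CPM of ATP5PB, ATP5PD, NDUFA5 and NDUFA12 in each library, with lines from left to right CT83, HORMAD1, double and control, markers for replicates and bars for the mean and SD of 3 libraries. ATP5PB ranges from 585 to 689 in the double line and from 402 to 525 in control.

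The double line was also compared with each single line, each of which lacks one of its genes. The comparison with CT83 also sets a lower level of CT83 against a higher one, so HORMAD1 and that level cannot be told apart. These comparisons share the double libraries with the one against control, so their directions do not add to each other. Against CT83, edgeR called 0 members (0.0064% of all genes), as did DESeq2 and limma-voom. At an unadjusted p under 0.05, ATP5PB and COX7A2L, which tunes how complexes III and IV associate, were higher and 0 members lower, against 3.19% and 4.86% of all genes. Over all genes tested, the median log2 fold change was -0.0014, with 7776 of 15616 positive. The nuclear median was 0.12 with 58 of 64 positive, and 0.09 with 57 of 64 after the length correction. It was 0.04 with 53 of 64 positive without CT83 replicate 3 alone, 0.07 with 58 of 64 without double replicate 1, and 0.04 with 54 of 64 without control replicate 2, CT83 replicate 3 and HORMAD1 replicate 1 together. The mitochondrial median was -0.19, but 0.08 without double replicate 3 and -0.42 without double replicate 2.

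ATP5PB had 0.33 (SE 0.12, edgeR adjusted p = 0.585) against CT83, with 689, 601 and 585 CPM in the double line and 550, 517 and 419 in CT83. NDUFA6 had 0.23 (SE 0.11), from 42.0, 45.5 and 51.8 CPM in the double line and 36.3, 36.7 and 45.5 in CT83. MT-ND5 lay lower in the double line without overlap, at -0.53 (SE 0.27, edgeR adjusted p = 0.585), with 83.3 CPM in its highest double library and 84.1 CPM in its lowest CT83 library, and MT-ND1 had -0.39 (SE 0.29). Without overlap, 7 members were higher and 1, MT-ND5, lower, against 8.86% and 9.05% of all genes.

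Against HORMAD1, edgeR called 0 members (0.0448% of all genes), as did DESeq2 and limma-voom. Over all genes, DESeq2 called 57 and limma-voom 4, against 7 with edgeR. At an unadjusted p under 0.05, 7 members were higher and 0 lower, against 3.45% and 4.13% of all genes. They were ATP5PB and ATP5PD of complex V, COX7A2L of complex IV, and NDUFA5, NDUFA6, NDUFA12 and NDUFS3 of complex I. Over all genes tested, the median log2 fold change was -0.0092, with 7512 of 15616 positive. The nuclear median was 0.12 with 59 of 64 positive, and 0.08 with 50 of 64 after the length correction. It was 0.05 with 43 of 64 without HORMAD1 replicate 1 alone, and 0.05 with 45 of 64 without the 3 libraries of most positive length slope. The mitochondrial median was -0.02, but 0.23 without HORMAD1 replicate 3, 0.20 without double replicate 3 and -0.27 without double replicate 2. Without overlap, 14 members were higher, NDUFB7 among them, and 0 lower, against 6.29% and 5.88% of all genes.

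ATP5PB had 0.44 (SE 0.12, edgeR adjusted p = 0.247) against HORMAD1, with 446, 459 and 473 CPM in HORMAD1, all below the 3 double libraries. This was the only member whose call turned on the settings. Its edgeR adjusted p was 0.0148 with no filter on low counts. It was 0.000995 without control replicate 2, CT83 replicate 3 and HORMAD1 replicate 1 together. Those settings also called more genes of any kind, 99 and 339, against 7 in the main fit. Over the 24 alternatives for ATP5PB the adjusted p ranged from 0.000995 to 0.869. NDUFA12, an accessory subunit of complex I, had 80.8, 74.7 and 69.7 CPM in the double line, against 54.0, 59.1 and 68.6 in HORMAD1, with 0.31 (SE 0.11, edgeR adjusted p = 0.467). Its lowest double library lay just above its highest HORMAD1 library. MT-ND5 had -0.24 (SE 0.27) and MT-ND1 -0.13 (SE 0.29), and both turned positive when 1 library was left out.

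The interaction asked whether the double line differed from the sum of both single-gene differences on the log2 scale, with CT83 lower in the double line than in the CT83 line as given above. The main edgeR fit called 0 of all 15616 genes (0.0%). It gave 4 members with an unadjusted p under 0.05, against 4.51% of all genes. DESeq2 and limma-voom called 0 members. Over all genes, DESeq2 called 3 and limma-voom 0. NDUFA6 had the largest value, 0.50 (SE 0.16, edgeR adjusted p = 0.841), with means of 39.5 ± 5.18 CPM in CT83 and 38.2 ± 1.57 in HORMAD1, while the double line had 46.4 ± 4.95 CPM and control 45.9 ± 3.75 (SD, n = 3 each). ATP5PB had 0.39 (SE 0.16), NDUFS3 0.32 (SE 0.15) and NDUFB11 0.31 (SE 0.14). MT-ND5 had -0.50 (SE 0.38) and MT-ND1 -0.25 (SE 0.41). Over all genes tested, the median was -0.0101, with 7571 of 15616 positive. The nuclear median was 0.13 with 60 of 64 positive, and 0.11 with 53 of 64 after the length correction. It was 0.04 with 46 of 64 without CT83 replicate 3 alone and 0.06 with 49 of 64 without HORMAD1 replicate 1 alone. Without double replicate 1 alone it was 0.08 with 57 of 64. Without the 3 libraries of most positive length slope it was 0.04 with 42 of 64.

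Other genes of the pathway were taken as 9 lists: assembly factors of each complex, genes of mitochondrial DNA and RNA, regulators of mitochondrial biogenesis, electron carriers with quinone synthesis, and the citrate cycle. Of their 115 genes, 105 were tested and 0 were called in any of the 6 comparisons. At an unadjusted p under 0.05, 2 of the 105 were higher and 0 lower in CT83 against control, with 2.73% of all genes in either direction, and 1 and 0 in HORMAD1 against control, with 1.81%. In the double line, 5 were higher and 1 lower against control (2.73% and 2.84% of all genes), 2 and 1 against CT83 (3.19% and 4.86%), and 8 and 2 against HORMAD1 (3.45% and 4.13%). For the interaction it was 1 and 0, with 4.51% of all genes in either direction. Among 17 complex I assembly factors, 13 had positive values in the double line against control with a median of 0.08, led by TMEM126B at 0.33 (SE 0.15, edgeR adjusted p = 0.886). Among 17 tested complex IV assembly factors, the median was 0.05, led by COA3 at 0.29 (SE 0.11, edgeR adjusted p = 0.828).

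SDHAF4, which helps assemble complex II, had the largest value of all 9 lists, 0.91 in the double line (SE 0.27, edgeR adjusted p = 0.713), with 0.88 (SE 0.27) in HORMAD1 and 0.71 (SE 0.27) in CT83, each against the same control libraries. Its counterpart SDHAF3 had 0.20 (SE 0.20) in the double line, -0.13 in HORMAD1 and -0.0082 in CT83. The 17 citrate cycle genes had a median of 0.02 and the 20 tested genes of mitochondrial DNA and RNA 0.02. Of 7 tested regulators of biogenesis, 2 were positive, and NRF1, the factor whose motif was searched above, had -0.37 (SE 0.11, edgeR adjusted p = 0.763) in the double line. In CT83 against control, the largest value outside complex II assembly was that of IDH2, a citrate cycle enzyme, at 0.28 (SE 0.23), and the smallest that of TFB2M, a mitochondrial transcription factor, at -0.22 (SE 0.14). In HORMAD1 against control, these were NUBPL, an iron-sulfur carrier for complex I, at 0.24 (SE 0.14) and UQCC3, a complex III assembly factor, at -0.24 (SE 0.14).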

How the data were processed

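Polyadenylated RNA of 12 samples, 3 from each of 4 HMLE-derived lines, was sequenced. The submitters' processing notes list STAR 2.7.5c, Trimmomatic 0.39, SAMtools and Picard, and name hg38 and hg19 without roles. Which tool counted the reads, with which annotation and strand setting, is not given in the sources used here. Per gene, the authors deposited expected counts, which are estimated and may hold fractions, for 61533 entries in each sample. They were rounded, which changed 6.75% of all values and 24.8% of the members' values by at most 0.5; the design had assumed raw counts, and the same test was kept. The files held 0 ERCC entries and 0 columns without a sample.

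With edgeR 4.0.16 in R 4.3.3, 15616 genes passed filterByExpr at a minimum count of 10. After TMM scaling, its quasi-likelihood model took 1 mean per line over all 12 samples, leaving 8 residual degrees of freedom, and p-values were adjusted by Benjamini-Hochberg over all genes tested, with a threshold of 0.05. Levels are normalised CPM, and log2 CPM used a prior count of 2. Lengths and exon overlaps came from GENCODE 29 (GRCh38), and NDUFA4 and NDUFA4L2 were placed in complex IV. The alternatives used DESeq2 1.42.0, limma-voom (limma 3.58.1), other scalings, filters and sample sets, a replicate block and a length correction. The model was also run on simulated counts with the same dispersion for every gene. Those counts lacked the wider spread of the mitochondrial mRNAs and the length trend, so they do not check the model for these. No pair of replicates differed by less than sampling noise (chi-square per degree of freedom 2.54 to 26.4).

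Members, lists and tests were chosen with earlier results of these data known. Named values are the 3 members with the largest and the 3 with the smallest log2 fold change in each comparison with control, and 2 and 2 elsewhere, among members with a mean log2 CPM of at least 5. For levels they are the mitochondrial mRNAs, the 3 highest and 2 lowest nuclear members of each complex, the isoform families and the members that failed the filter. COX7A2L, NDUFS3, NDUFB11, NDUFV1, COX5B, UQCRC1, UQCRC2, MT-CO2, MT-ND6, NDUFA13, SDHC and the members named only as lying without overlap or as low in count were described in addition, after their values were seen. A count of 3 per library was taken as the floor. The SEs come from the edgeR fit and cover no more than the spread among these libraries.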

Additional observations from a re-analysis of the deposited data

How the results depend on the processing

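Members called stayed at 0 in all 6 comparisons under every alternative run, except for ATP5PB in the double line against HORMAD1. There, 1 member was called with no filter on low counts and 1 without control replicate 2, CT83 replicate 3 and HORMAD1 replicate 1 together. Over all genes, these settings called 99 and 339, against 7 in the main fit. Leaving out those 3 libraries also turned MT-ND5 in that comparison to 0.0158. The nuclear median level was 39.4 CPM per kilobase of all exons and 124 per kilobase of the shortest principal transcript. When single libraries were left out in turn, the log2 fold change of SDHB in HORMAD1 against control ran from -0.0021 to 0.16, that of MT-ND4 in the double line against control from -0.57 to 0.0313, and in the double line against HORMAD1 that of MT-ND5 from -0.52 to 0.0110 and that of MT-ND1 from -0.40 to 0.21. The interaction of MT-ND1 ran from -0.51 to 0.10. Over all alternatives, MT-ND1 ran from -0.65 to -0.16 in the double line against CT83 and from -0.54 to -0.05 against control, and MT-ND5 from -0.82 to -0.40 against CT83 and from -0.55 to -0.13 against control. With single libraries left out, the nuclear median ran from -0.06 to 0.07 in CT83 and from -0.07 to 0.05 in HORMAD1 against control. It ran from 0.06 to 0.14 in the double line against control, from 0.04 to 0.16 against CT83, from 0.05 to 0.17 against HORMAD1, and from 0.04 to 0.19 for the interaction. The mitochondrial median took both signs in each of the 6 comparisons, from -0.03 to 0.18 in CT83 and from -0.33 to 0.0040 in HORMAD1 against control, from -0.38 to 0.05, from -0.42 to 0.08 and from -0.27 to 0.23 in the double line against control, CT83 and HORMAD1, and from -0.34 to 0.19 for the interaction. The cause of these shifts was not tested. The replicate numbers gave no clear pairing of the libraries, though a pairing is not excluded. The deviations of 18 same-numbered pairs correlated from -0.35 to 0.35, 6 of them over 0.1. Pairs of unlike number correlated from -0.44 to 0.48, and 6 of 12 libraries correlated best with their own number. With the replicate block 0 members were called in each comparison, and the nuclear median in the double line against control was 0.09. A fit of only the groups compared could not be made for the interaction. The median SE between lines was 0.10 for nuclear and 0.28 for mitochondrial members. With 3 libraries per line, differences of these sizes were not detectable, and larger ones could also go uncalled. ATP5PB in the double line against HORMAD1 was not called at 0.44 (SE 0.12, edgeR adjusted p = 0.247).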
